A study of Danio rerio with 6 samples.

Results

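The antioxidant and glutathione enzyme genes of the zebrafish larval gut were followed 1 h after injection of IL-26. Members were taken by gene symbol: glutathione S-transferases (GST), microsomal GSTs, glutathione peroxidases, peroxiredoxins, thioredoxins and their reductases, glutaredoxins, superoxide dismutases, catalase, sulfiredoxin, glutathione synthesis and reduction genes, quinone reductase, heme oxygenases, and the transcription factor genes *nfe2l2* with their inhibitors *keap1*. Of 77 symbols that fitted this rule, 71 had an mRNA row in the count table, out of 14570 named genes, and for a gene with several rows the one with the most counts was taken. No row was found for *gstk2*, *hmox1b*, *hmox2b*, *sod3b*, *srxn1* and *txndc16*, which were not analysed here. A total of 57 members passed the count filter, and the other 14 had at most 49 counts over all libraries.

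Wild-type (WT) larvae at 5 days post fertilization (dpf) were injected in the gut and swim bladder with rzIl26, recombinant zebrafish IL-26, or with BSA, bovine serum albumin, as the control. The gut was taken out 1 h after injection, and a library was made from 10 to 15 pooled guts. There were 3 libraries in each group, labelled as biological replicates, and both groups were otherwise the same in genotype, age and tissue. The comparison asked which transcripts differ early after the cytokine is added.

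Cells hold reactive oxygen in check with enzymes that pass it down a chain: superoxide dismutases turn superoxide into hydrogen peroxide, and catalase, peroxiredoxins and glutathione peroxidases remove the peroxide. The peroxidases are recharged by glutathione or thioredoxin, which are kept reduced with NADPH, and GSTs couple glutathione to reactive compounds. Many of these genes are induced by the transcription factor NRF2 (*nfe2l2*), which KEAP1 holds back until oxidants or electrophiles release it. In zebrafish both factors are encoded by gene pairs, *nfe2l2a* and *nfe2l2b*, and *keap1a* and *keap1b*.

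The libraries held 15156164 to 22219894 counts. No library repeated another: a chi-square of any pair over all rows came to 19.6 or more per degree of freedom. The TMM scaling factor, which adjusts a library total for the make-up of its RNA, was 0.920 to 0.980 after BSA and 1.05 to 1.07 after rzIl26, so the groups differed in scaling as well. Enterocyte markers were abundant, and their summed level was 81502 to 90006 CPM (counts per scaled library size, TMM-normalized) after BSA and 55373 to 67799 after rzIl26, with 4 of 14 tested markers lower and none higher. The lower ones were *fabp1b.1*, *apoa4b.1*, *apoa4b.2* and *chia.2*. Among all 14, 10 log2 fold changes were below 0 and 4 above 0. *vil1*, *cdh17*, *cldn15la*, *fabp6* and *si:dkey-21c1.1* had log2 fold changes of 0.05, 0.09, -0.07, 0.27 and 0.02 and were not called. *fabp2*, *apoa1a*, *slc15a1b*, *apobb.1* and *mttp* had -0.49, -0.44, -0.43, -0.37 and -0.19 and were not called either. At an unadjusted p under 0.05 in edgeR's quasi-likelihood test, 7 enterocyte markers were lower and 1 higher. The leukocyte list summed to 62.1 to 78.0 CPM after BSA and 131 to 180 after rzIl26, with 3 of 8 tested genes higher. These were *mmp9*, *mmp13a* and *il1b*, which are also inducible in other cells. The other 5 tested genes were not called. Of these, *lcp1*, *csf1ra* and *csf3r* had log2 fold changes of -0.09, -0.07 and 0.09. *npsn* had 0.48 and *lyz* had 1.16 (edgeR adjusted p = 0.061 for *lyz*). The neutrophil gene *mpx* had at most 2 counts in a library. The skin and fin list rose in 6 of 13 tested genes, its sum being 1990 to 2249 CPM after BSA and 2415 to 2754 after rzIl26. Of its 13 log2 fold changes, 11 were above 0 and 2 below 0 (*krt92* at -0.53 and *ppl* at -0.02, neither called). The muscle list summed to 4920 to 5340 CPM after BSA and 5491 to 6742 after rzIl26, with 1 of 12 tested genes higher and all 12 log2 fold changes above 0. The share called was 28.6% for enterocyte, 37.5% for leukocyte, 46.2% for skin and fin and 8.33% for muscle genes, beside 18.9% of all rows tested. The liver list had no called gene among 21, by edgeR's quasi-likelihood test at an adjusted p under 0.05, with 1 gene at an unadjusted p under 0.05. Among the 21 liver genes, 19 log2 fold changes were above 0 and 2 below 0, with a median of 0.46. Its sum ranged from 5669 to 16858 CPM and was high in BSA replicate 2 and rzIl26 replicates 2 and 3. In bulk tissue, fewer cells of a type and less RNA per cell cannot be told apart, and the part of these marker shifts in the results below was not tested, apart from a fit with the liver level as a covariate.

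Antioxidant and glutathione genes were mostly lower where they differed between the injections. Of the 57 tested members, 15 fell and 3 rose after rzIl26 (edgeR's quasi-likelihood test, Benjamini-Hochberg adjusted p under 0.05 over all rows). That is 31.6% of the members called, beside 18.9% of all 10576 rows tested. The enterocyte markers, given above, had a lower sum in the same rzIl26 libraries, with 4 of 14 tested genes lower. In the direction of the fall it is 26.3% of the members beside 9.60% of all rows, and in the direction of the rise 5.26% beside 9.27%. At an unadjusted p under 0.05 there were 22 lower and 3 higher members of 57, beside 1879 lower and 1812 higher of the 10576 rows (34.9% in either direction). In 29 members (50.9%) no library of one group overlapped the range of the other, beside 39.6% of all rows. The median log2 fold change was -0.07 for the members and 0.01 for all rows. With library totals alone as the scaling, the median of all rows moved up by 0.16 and the members' median became 0.09, against 0.17 for all rows, and 6 members were lower and 5 higher, beside 400 lower and 1783 higher of the 10576 rows. The members' median minus that of all rows was -0.09 with TMM and -0.08 with library totals, and at its lowest -0.15, without rzIl26 replicate 3.

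The members were well-covered genes, and the share of rows called increased with depth. Among rows with a mean of at least 1000 counts per library, 13 of 33 members were called (39.4%), beside 34.4% of all such rows. The split differed more than the total: 33.3% of these members fell and 6.06% rose, beside 19.5% and 14.9% of all rows at that depth. Between 100 and 1000 counts, 5 of 18 members were called (27.8%, beside 19.9%), and 22.2% of the members fell, beside 9.94% of the rows. The 6 tested members under 100 counts gave no call with edgeR, where 7.2% of all rows did.

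The changes were small. Absolute log2 fold changes of the 18 called members ran from 0.28 to 1.02 with a median of 0.49, against 0.55 for all calls, and 11 of the 18 were under 0.5. Together the member rows made up 1.03% ± 0.057 (SD, n = 3) of all counts in the BSA group and 1.00% ± 0.0094 (SD, n = 3) in the rzIl26 group, and these ranges overlapped. After TMM scaling the same sum was 10866 ± 246 CPM after BSA and 9486 ± 94.1 CPM after rzIl26, without overlap, so the fall of the sum rested on the scaling. The log2 fold changes of all 57 tested members, ordered by family, show where the falls lay.

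**Figure D1:**
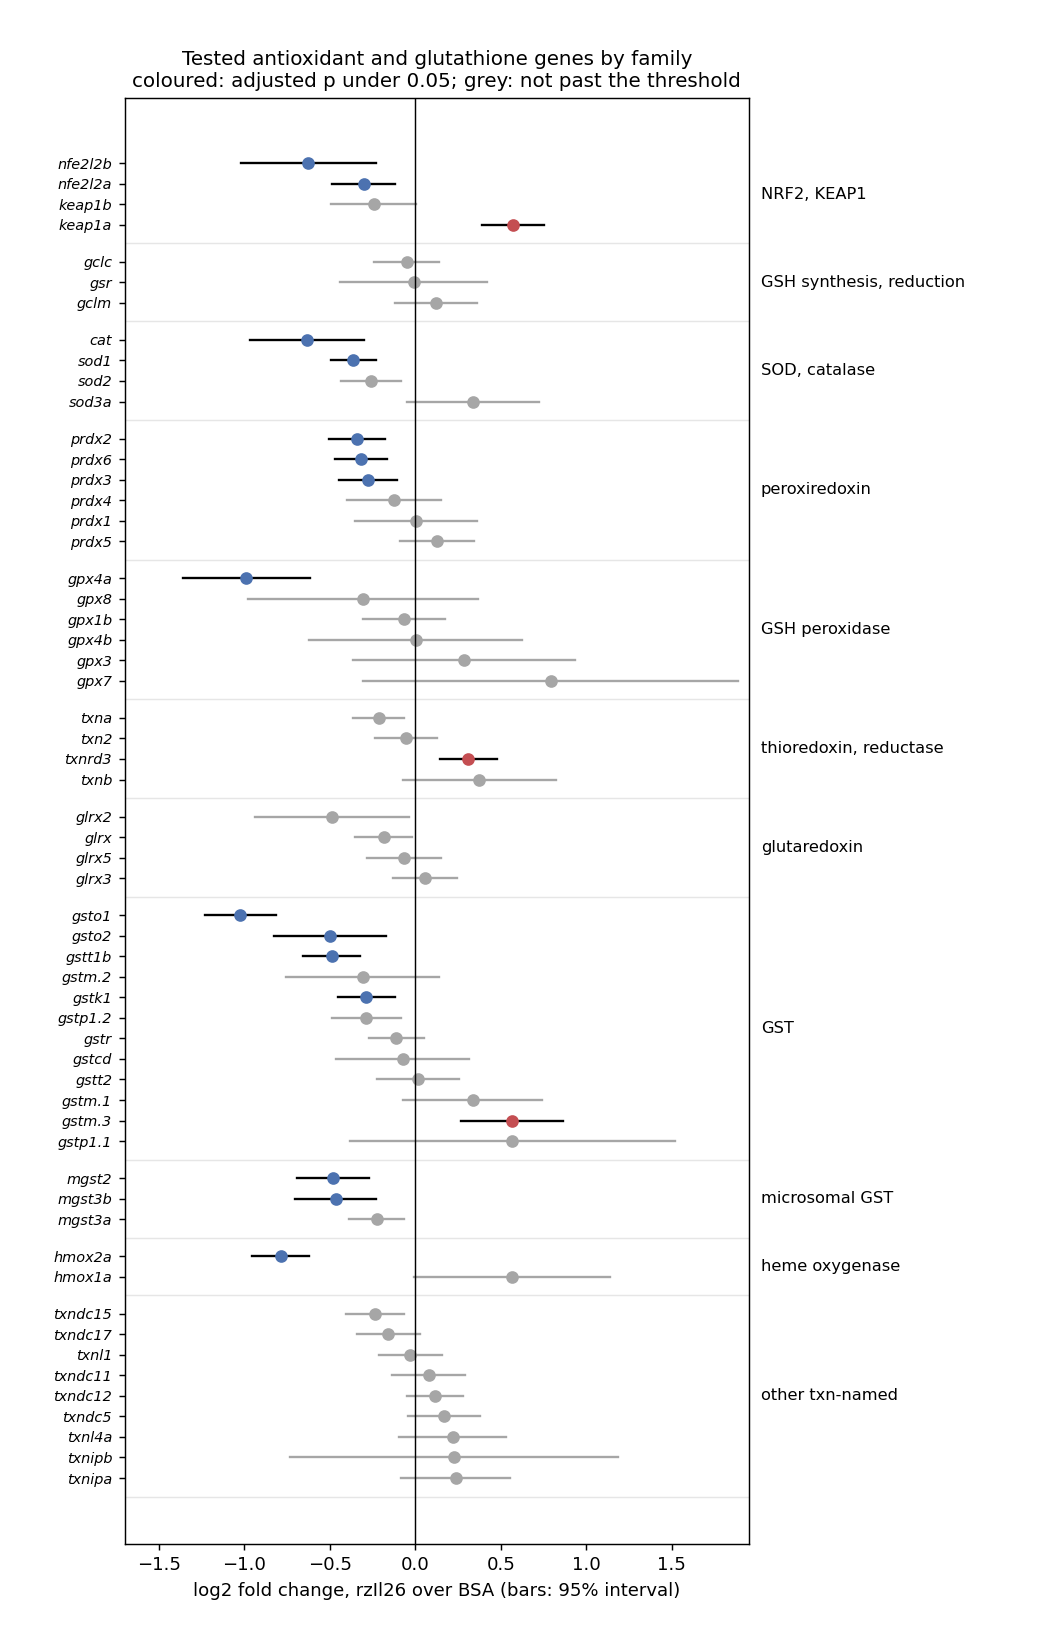
Log2 fold change (rzIl26 over BSA, horizontal axis) of each tested member by family, with the 95% interval as a bar, and with blue for genes that fell, red for genes that rose and grey for genes that did not pass the threshold. The 15 blue points lie in 7 of the 11 families, and the 3 red points are *keap1a*, *txnrd3* and *gstm.3*.

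At the head of the pathway, *keap1a* rose while both *nfe2l2* genes fell. *keap1a* (NM_182864), an adaptor that marks NRF2 for degradation, stood at 89.8, 90.1 and 83.3 CPM in BSA replicates 1 to 3 and at 127, 139 and 125 CPM in rzIl26 replicates 1 to 3. Every rzIl26 library lay above every BSA library, with a wide gap between the groups. That is a log2 fold change of 0.57 (SE 0.077, edgeR adjusted p = 0.0066), or an increase of 48.5%. The call remained in all 18 alternative settings, including library totals alone, where the log2 fold change was 0.73.

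*nfe2l2a* (NM_182889), the NRF2 gene whose product activates the antioxidant genes, had 186, 171 and 159 CPM after BSA and 135, 139 and 144 CPM after rzIl26. The groups did not overlap, though the gap between the lowest BSA library and the highest rzIl26 library was narrow. Its log2 fold change was -0.30 (SE 0.079, edgeR adjusted p = 0.037). *nfe2l2b* (NM_001257183), whose product is known in zebrafish embryos mainly as a repressor, had 32.4, 25.4 and 30.8 CPM after BSA and 22.7, 14.8 and 20.1 CPM after rzIl26. All rzIl26 libraries were lower than all BSA libraries, and rzIl26 replicate 2 was the lowest. Its log2 fold change was -0.63 (SE 0.17, edgeR adjusted p = 0.041). Neither call was firm: without BSA replicate 1, the edgeR adjusted p was 0.11 for *nfe2l2a* and 0.12 for *nfe2l2b*, and with library totals alone it was 0.20 and 0.098. The call of *nfe2l2a* was also lost without BSA replicate 2 or any 1 of the rzIl26 libraries (edgeR adjusted p = 0.063 to 0.098), and that of *nfe2l2b* without BSA replicate 2 or 3 or rzIl26 replicate 2 or 3 (0.053 to 0.11).

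*keap1b* did not pass the threshold. It had 52.5, 52.7 and 53.3 CPM after BSA and 37.9, 47.5 and 48.3 CPM after rzIl26, with a log2 fold change of -0.25 (SE 0.11, edgeR adjusted p = 0.15). The groups did not overlap, and rzIl26 replicate 1 was the lowest. In the name table the span of *nfe2l2a* overlaps *hnrnpa3* and that of *nfe2l2b* overlaps *cycsb*. Whether the counting used strand is not given in the sources used here, so reads of such neighbours could have been shared.

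None of the 3 members that make and recycle glutathione was called, beside 18.9% of all rows. *gclc* and *gclm* encode the catalytic and modifier subunits of glutamate-cysteine ligase, the first step of glutathione synthesis. *gclc* had 144, 149 and 165 CPM after BSA and 141, 146 and 156 CPM after rzIl26, a log2 fold change of -0.05 with a 95% interval of -0.24 to 0.14 (edgeR adjusted p = 0.70). *gclm* had 48.6, 43.8 and 54.99 CPM after BSA and 51.8, 56.7 and 51.8 CPM after rzIl26, a log2 fold change of 0.12 with an interval of -0.12 to 0.36 (edgeR adjusted p = 0.45). For both genes the libraries of the groups were interleaved, and both intervals lie within 0.5 of no change on the log2 scale.

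*gsr*, which encodes the reductase that returns oxidized glutathione to its reduced form, differed more within a group than between them. It had 62.9, 63.3 and 82.4 CPM after BSA and 51.3, 77.1 and 78.5 CPM after rzIl26. BSA replicate 3 was high and rzIl26 replicate 1 low. The log2 fold change was -0.01 with a 95% interval of -0.44 to 0.42 (edgeR adjusted p = 0.97), so a moderate change in either direction could not be detected at this depth and spread.

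Enzymes that act on superoxide and hydrogen peroxide fell in part. *sod1* (NM_131294), the cytosolic superoxide dismutase, had 637, 652 and 629 CPM after BSA and 507, 492 and 493 CPM after rzIl26. The replicates lay close together and the groups far apart. *sod1* decreased by 22.2%, a log2 fold change of -0.36 (SE 0.057, edgeR adjusted p = 0.010). With library totals alone it was -0.20 (edgeR adjusted p = 0.053), and the call remained without any 1 library.

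*cat* (NM_130912), catalase, had 493, 583 and 465 CPM after BSA and 271, 333 and 388 CPM after rzIl26. The ranges were apart but each was wide. Its log2 fold change was -0.63 (SE 0.14, edgeR adjusted p = 0.024). The call was lost without BSA replicate 1 (edgeR adjusted p = 0.066), BSA replicate 2 (0.070) or rzIl26 replicate 2 (0.074).

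*sod2*, the mitochondrial superoxide dismutase, just missed the threshold. It had 112, 123 and 119 CPM after BSA and 105, 95.2 and 96.6 CPM after rzIl26, with a log2 fold change of -0.26 (SE 0.075, edgeR adjusted p = 0.051). All rzIl26 libraries were below all BSA libraries, while the groups did not overlap in 39.6% of all rows tested. *sod2* passed in 3 of the 18 alternative settings, and with library totals alone its log2 fold change was -0.10 (edgeR adjusted p = 0.44). *sod3a*, which encodes a secreted form, had 6.56, 8.50 and 6.30 CPM after BSA and 7.90, 8.67 and 10.3 CPM after rzIl26, a log2 fold change of 0.34 with a 95% interval of -0.05 to 0.72 (edgeR adjusted p = 0.20). Its groups overlapped.

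Among the peroxiredoxins, thiol peroxidases, 3 of 6 fell and none rose, and with library totals alone none of these 3 was called. That is 50% called, beside 18.9% of all rows and 34.4% of rows with a mean of at least 1000 counts per library. *prdx2* (NM_001002468) had 2335, 2388 and 2178 CPM after BSA and 1927, 1722 and 1795 CPM after rzIl26. No rzIl26 library reached the lowest BSA library. *prdx2* fell by 0.34 on the log2 scale (SE 0.069, edgeR adjusted p = 0.017). *prdx6* fell by 0.32 on the log2 scale (edgeR adjusted p = 0.018) and *prdx3*, a mitochondrial form, by 0.28 (edgeR adjusted p = 0.037). The 3 genes moved by similar amounts and were close to the threshold. The call of *prdx3* was lost without any 1 library (edgeR adjusted p = 0.055 to 0.12). That of *prdx2* was lost without BSA replicate 1 or 2 or rzIl26 replicate 2 or 3 (0.054 to 0.062), and that of *prdx6* without BSA replicate 2 or 3 or rzIl26 replicate 2 (0.056 to 0.067). The other three, *prdx1*, *prdx4* and *prdx5*, had log2 fold changes of -0.13 to 0.13 and did not pass.

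Of the glutathione peroxidases 9 had a row, 6 were tested and 1 fell (16.7% called, close to the 18.9% of all rows). *gpx4a* (NM_001007282), whose mammalian counterpart reduces lipid peroxides in membranes, had 23.3, 26.6 and 26.7 CPM after BSA and 12.2, 10.5 and 15.9 CPM after rzIl26. All rzIl26 libraries were far below all BSA libraries. *gpx4a* decreased by 49.7%, a log2 fold change of -0.99 (SE 0.16, edgeR adjusted p = 0.010), and the call remained in all 18 alternative settings. The related gene *gpx4b* had 0.926 to 1.497 CPM in the 6 libraries with overlapping groups. Any reads that fit both genes may have been counted for either, so the split between the pair is uncertain. *gpx1b*, the glutathione peroxidase with the most counts, had 253, 243 and 283 CPM after BSA. After rzIl26 it had 263, 266 and 216 CPM (log2 fold change -0.07, edgeR adjusted p = 0.69). Its groups overlapped.

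The thioredoxin branch moved the other way at its reductase. *txnrd3* (NM_183072), a thioredoxin reductase, had 640.0, 682 and 745 CPM after BSA and 858, 841 and 862 CPM after rzIl26. The rzIl26 libraries were tightly grouped above a wider BSA range. *txnrd3* rose by 0.31 on the log2 scale (SE 0.072, edgeR adjusted p = 0.026), and with library totals alone it was 0.47 (edgeR adjusted p = 0.011). The call was lost without BSA replicate 1 (edgeR adjusted p = 0.084), BSA replicate 2 (0.085), rzIl26 replicate 2 (0.072) or rzIl26 replicate 3 (0.069).

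The thioredoxins themselves did not pass the threshold. *txna* had 314, 296 and 314 CPM after BSA and 265, 273 and 258 CPM after rzIl26, with no overlap (log2 fold change -0.22, SE 0.063, edgeR adjusted p = 0.054). *txnb* had 44.2, 48.7 and 53.1 CPM after BSA and 44.5, 76.4 and 68.1 CPM after rzIl26, a log2 fold change of 0.37 (SE 0.19, edgeR adjusted p = 0.21). In *txnb*, rzIl26 replicates 2 and 3 were high and replicate 1 lay within the BSA range, and without that library the edgeR adjusted p was 0.021. The mitochondrial *txn2* had a log2 fold change of -0.05 (edgeR adjusted p = 0.66). None of the 4 glutaredoxins was called by edgeR, with 2 at an unadjusted p under 0.05, and *glrx*, which had the most counts among them, had a log2 fold change of -0.19 (edgeR adjusted p = 0.11). None of the 9 other tested txn-named genes was called by edgeR, with 1 at an unadjusted p under 0.05. They are a mixed group that includes protein-folding enzymes and the thioredoxin-binding *txnip* genes. Over all rows tested, 18.9% were called and 34.9% had an unadjusted p under 0.05. Groups of 4 and 9 genes are too small to set an absence of calls apart from that share. *txnipa* had 389, 378 and 401 CPM after BSA and 443, 558 and 373 CPM after rzIl26 (log2 fold change 0.23, edgeR adjusted p = 0.27). Its rzIl26 libraries were spread around the BSA range.

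**Figure D2:**
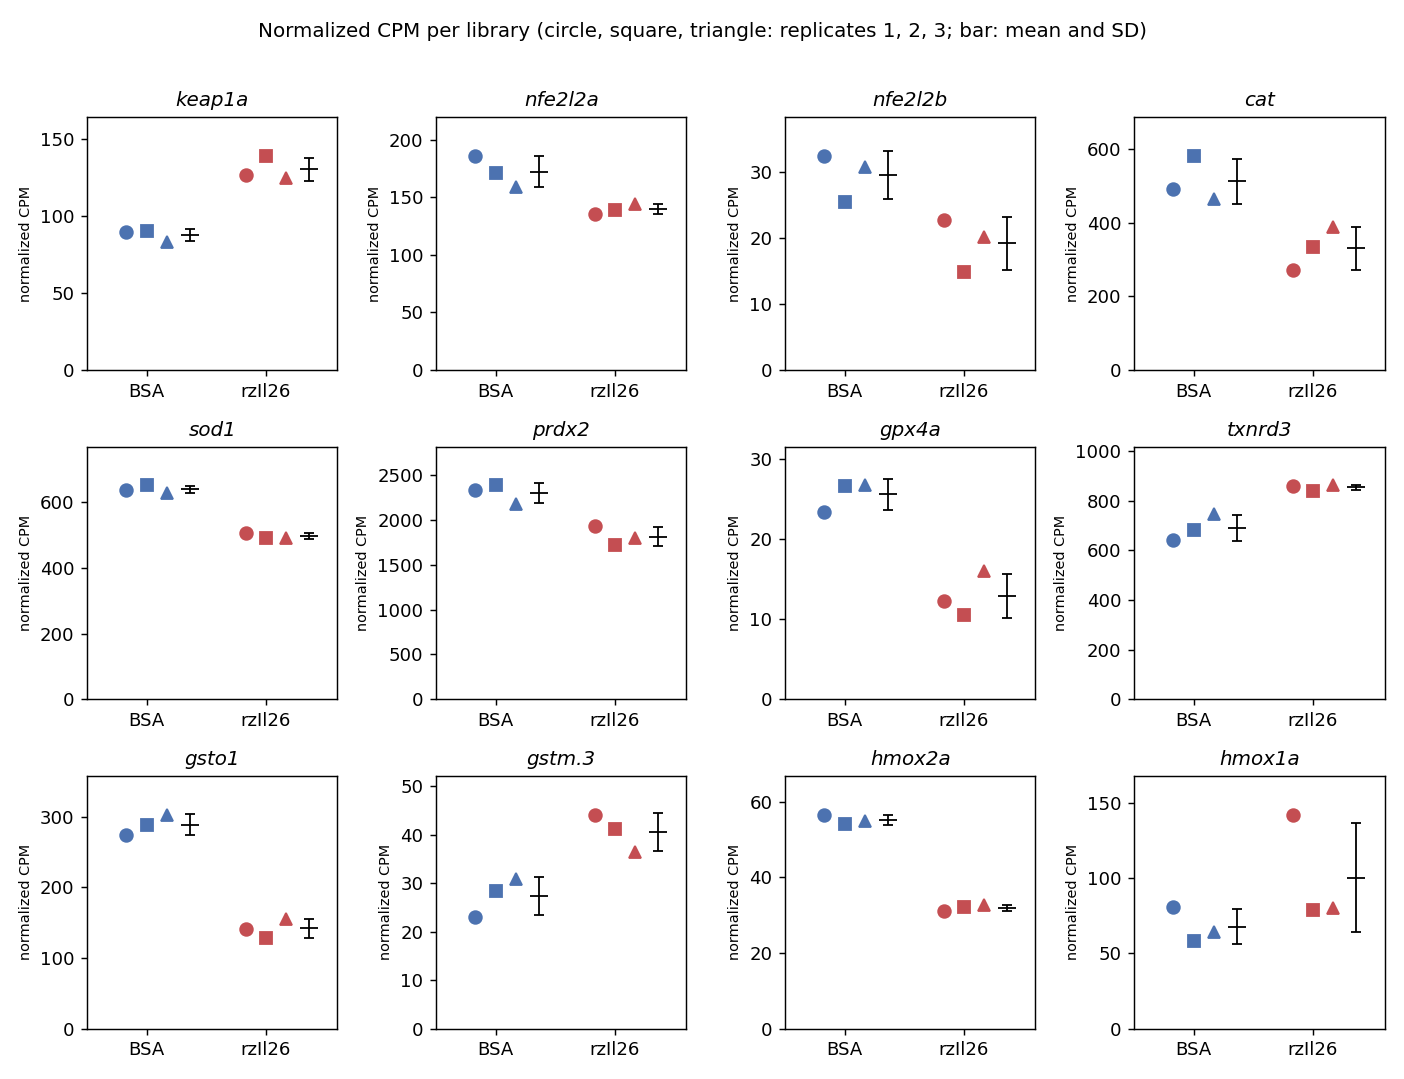
Normalized CPM (vertical axis, from 0) of 12 members in each of the 3 BSA and 3 rzIl26 libraries, with circle, square and triangle for replicates 1, 2 and 3, and the bar giving mean and SD of the group. The groups do not overlap in 11 of the genes, which are all called members. None of the 18 called members had overlapping groups, which largely follows from passing the test. Of all tested members, called or not, 50.9% had groups that did not overlap, beside 39.6% of all rows tested. In *hmox1a*, which was not called, rzIl26 replicate 1 stands at 142 CPM above the other rzIl26 libraries.

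The GSTs held the largest single fall. Of 17 soluble GST genes with a row, 12 were tested, 4 fell and 1 rose (41.7% called, beside 18.9% of all rows). *gsto1* (NM_001002621), an omega-class enzyme with thiol transferase activity, had 273, 289 and 303 CPM after BSA and 141, 129 and 156 CPM after rzIl26. Every rzIl26 library was far below every BSA library. *gsto1* decreased by 50.8%, a log2 fold change of -1.02 (SE 0.089, edgeR adjusted p = 0.0032) with a 95% interval of -1.23 to -0.82. It was the lowest adjusted p among the members, and the call remained in all 18 alternative settings.

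*gsto2*, the other omega-class gene, had 433, 423 and 575 CPM after BSA and 296, 346 and 371 CPM after rzIl26. BSA replicate 3 was well above the rest. The log2 fold change was -0.50 (SE 0.14, edgeR adjusted p = 0.046), and the call was lost without any 1 library (edgeR adjusted p = 0.060 to 0.11). *gstt1b*, a theta-class gene, had 85.7, 91.0 and 92.4 CPM after BSA and 66.0, 61.8 and 63.9 CPM after rzIl26. Its replicates agreed closely within each group. It fell by 0.49 on the log2 scale (SE 0.071, edgeR adjusted p = 0.0086), and the call remained in all 18 alternative settings. *gstk1*, the kappa-class gene, fell by 0.29 on the log2 scale (edgeR adjusted p = 0.033), but the call was lost without any 1 library (edgeR adjusted p = 0.061 to 0.11) and with library totals alone (0.28). In the name table its span overlaps that of *gstk4*.

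*gstm.3* (NM_001162851), a mu-class gene, was the GST that rose. It had 23.1, 28.4 and 30.8 CPM after BSA and 44.2, 41.2 and 36.4 CPM after rzIl26, with a log2 fold change of 0.57 (SE 0.13, edgeR adjusted p = 0.024). No BSA library reached the rzIl26 range. The call was lost without BSA replicate 1 (edgeR adjusted p = 0.064), BSA replicate 2 (0.064), rzIl26 replicate 1 (0.052) or rzIl26 replicate 2 (0.074). Its relatives *gstm.1* and *gstm.2* had log2 fold changes of 0.33 and -0.31 and did not pass. Their sequences were not compared here, and the split of any reads that fit several of these genes is uncertain.

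The pi-class genes did not pass. *gstp1.2*, the soluble GST with the most counts, had 678, 770.2 and 845 CPM after BSA and 622, 633 and 625 CPM after rzIl26 (log2 fold change -0.29, SE 0.087, edgeR adjusted p = 0.058). The groups did not overlap, and the BSA libraries were the more spread. Its edgeR adjusted p was 0.044 without BSA replicate 1 and 0.39 with library totals alone, where the log2 fold change was -0.13.

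Of the microsomal GSTs, membrane-bound enzymes of glutathione and eicosanoid metabolism, 5 had a row, 3 were tested and 2 fell. That is 66.7% called, beside 18.9% of all rows. *mgst2* (NM_001045302) had 41.7, 46.8 and 40.7 CPM after BSA and 30.1, 33.0 and 29.3 CPM after rzIl26. The groups were clearly apart. *mgst2* fell by 0.48 on the log2 scale (SE 0.091, edgeR adjusted p = 0.015), and the call remained in all 18 alternative settings. *mgst3b* had 464, 425 and 552 CPM after BSA and 341, 364 and 337 CPM after rzIl26. That is a log2 fold change of -0.47 (SE 0.10, edgeR adjusted p = 0.022). Its rzIl26 libraries were close together and its BSA libraries were not. That call was lost without BSA replicate 1 (edgeR adjusted p = 0.060), rzIl26 replicate 2 (0.056) or rzIl26 replicate 3 (0.062), and with library totals alone (0.097). *mgst3a* had a log2 fold change of -0.23 and missed the threshold (edgeR adjusted p = 0.059).

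The heme oxygenases, which break down heme, differed from each other. *hmox2a* (NM_001103139), of the form that is constitutive in mammals, had 56.6, 54.1 and 54.9 CPM after BSA and 31.0, 32.1 and 32.7 CPM after rzIl26. The replicates were nearly equal within each group. *hmox2a* decreased by 42.1%, a log2 fold change of -0.79 (SE 0.071, edgeR adjusted p = 0.0034), and the call remained in all 18 alternative settings.

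*hmox1a* (NM_001127516), of the inducible form and a widely used NRF2 target, had 80.6, 58.3 and 64.3 CPM after BSA and 142, 78.5 and 80.4 CPM after rzIl26. BSA replicate 1 lay above rzIl26 replicates 2 and 3, so the groups overlapped, and rzIl26 replicate 1 stood far above the rest. The log2 fold change was 0.57 (SE 0.24, edgeR adjusted p = 0.15) with a 95% interval of -0.01 to 1.14. Without rzIl26 replicate 1 it was 0.23 (edgeR adjusted p = 0.30). With the liver marker level as a covariate it was 0.69 and passed (edgeR adjusted p = 0.016). The difference between *hmox1a* and *hmox2a* in their response was not itself tested. *nqo1*, another widely used NRF2 target, had 1 to 4 counts in a library and was not tested.

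Some members varied together among libraries of the same injection. All were set together here after their values were seen, though *gsr*, *gsto2*, *cat* and *hmox1a* were already named for their call or family. The correlations below therefore describe these 6 libraries and do not test a shared pattern. *gstp1.1* had 65.2, 50.9 and 127 CPM after BSA and 66.4, 161 and 133 CPM after rzIl26, a range of 2.49-fold within the BSA group and 2.42-fold within the rzIl26 group. *prdx1* had 159, 167 and 201 CPM after BSA and 138, 198 and 190.5 CPM after rzIl26. Both genes, and *gsr* and *gsto2*, were highest in BSA replicate 3 among the BSA libraries and higher in rzIl26 replicates 2 and 3 than in rzIl26 replicate 1. Their deviations from the group mean correlated with those of *gstp1.1* at 0.94 (*gsr*), 0.93 (*prdx1*) and 0.92 (*gsto2*) over the 6 libraries. Other members of the same families went the opposite way as strongly, such as *prdx2* (-0.99) and *gstr* (-0.92), and so did *sod1* (-0.94). For *gstp1.1* the log2 fold change between the injections was 0.57 with a 95% interval of -0.38 to 1.52 (edgeR adjusted p = 0.37). The share of *gstp1.1* in any reads that also fit the related *gstp1.2* is uncertain.

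*gpx3*, which encodes a secreted peroxidase, had 13.3, 21.1 and 14.0 CPM after BSA and 12.2, 22.9 and 23.5 CPM after rzIl26. Its high libraries, BSA replicate 2 and rzIl26 replicates 2 and 3, were those with high liver markers, which summed to 15198, 16351 and 16858 CPM there and to 5669 to 6411 CPM in the other libraries. Within each group *cat* was also higher in those libraries, and *hmox1a* was lower in BSA replicate 2 than in the other BSA libraries and highest in rzIl26 replicate 1. With the liver level as a covariate, 12 members fell and 4 rose, and 15 of the 18 calls were shared. Over all rows there were 847 falls and 841 rises with the covariate, and 1015 and 980 without it. The calls of *nfe2l2a*, *prdx3* and *gsto2* were lost with the covariate.

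**Figure D3:**
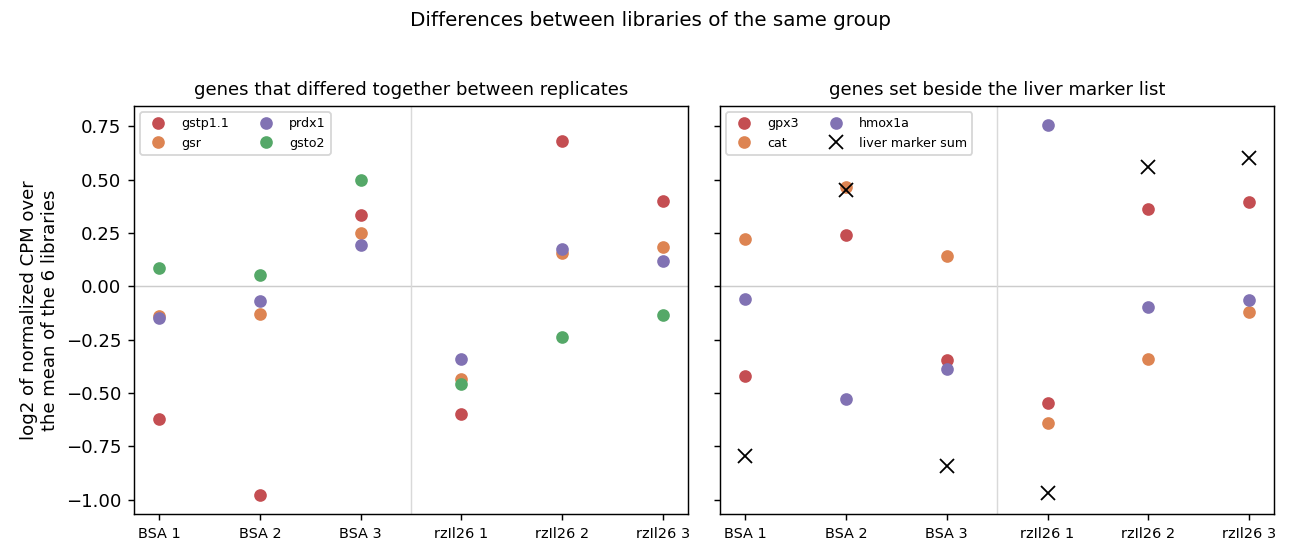
Log2 of normalized CPM over the mean of the 6 libraries (vertical axis) for each library, with *gstp1.1*, *gsr*, *prdx1* and *gsto2* on the left, and *gpx3*, *cat*, *hmox1a* and the summed liver markers (crosses) on the right. BSA replicate 3 is the highest BSA library for all genes on the left, and *gpx3* and the crosses are high in the same 3 libraries on the right.

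Some tested members not described above were well covered and not called, such as the GST gene *gstr* (log2 fold change -0.11, edgeR adjusted p = 0.29). The untested members were few in counts. The 14 untested genes had at most 11 counts in a library, and 5 of them (*gsta.2*, *gstt1a*, *gpx9*, *txnl4b* and *txnrd2.2*) had 0 counts in every library. Such counts may not show a gene's level, since 7 members had 2 or more rows and 1 of these, *gpx4a*, passed the filter. Over the whole table, 60.4% of genes with 2 or more rows had under 10 counts in their highest row, against 18.0% of genes with 1 row. Summing the rows of each gene changed no member's call.

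Companion genes of redox metabolism were listed beside the members, with earlier results of these data known. Of 149 genes listed, 122 had a row, 103 were tested, 18 rose and 17 fell (34.0% called, beside 18.9% of all rows). With library totals alone 27 rose and 8 fell, while over all rows 1783 rose and 400 fell. Among enzymes that supply NADPH, 3 of 11 rose (27.3%, beside 18.9% of all rows called) and none fell. *nnt*, the transhydrogenase of the mitochondrial inner membrane, had 160, 159 and 137 CPM after BSA and 222, 216 and 221 CPM after rzIl26. Its log2 fold change was 0.53 (edgeR adjusted p = 0.0091). *tktb*, a transketolase, rose by 0.29 on the log2 scale (edgeR adjusted p = 0.023), a call that was lost without any BSA library or rzIl26 replicate 2 or 3 (0.057 to 0.081).

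Of the genes for glutathione supply and turnover 1 of 19 rose and 3 fell. That is 21.1% called, close to the 18.9% of all rows. *cbsb*, which opens the route from homocysteine to cysteine, had a log2 fold change of -0.51 (edgeR adjusted p = 0.012). *hagh*, a thioesterase that frees glutathione in the glyoxalase pathway, had -0.31 (edgeR adjusted p = 0.017), lost without BSA replicate 1 (0.063) or rzIl26 replicate 2 (0.052), and with library totals alone its log2 fold change was -0.15 (0.15). Of the genes listed as NRF2 partners and other targets 3 of 26 rose and 6 fell (34.6% called, beside 18.9% of all rows). The falls include *ftr82* (log2 fold change -0.41, edgeR adjusted p = 0.014). By its symbol it is a gene of the finTRIM family, and its place among NRF2 targets was not examined. The detoxifying enzymes *ephx1* and *ugt1ab* had log2 fold changes of -0.85 and -1.17 (edgeR adjusted p = 0.0054 and 0.0076).

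Among other genes for redox repair, 4 of 33 rose and 6 fell (30.3% called, beside 18.9% of all rows). *pdia4*, a protein disulfide isomerase of the endoplasmic reticulum, had 44.5, 52.1 and 53.6 CPM after BSA and 111, 139 and 114 CPM after rzIl26, and rose by 1.28 on the log2 scale (edgeR adjusted p = 0.0038). *msrb2*, which repairs oxidized methionine, had 83.0, 88.3 and 82.7 CPM after BSA and 38.6, 38.2 and 49.8 CPM after rzIl26, and fell by 1.00 (edgeR adjusted p = 0.0054). In both genes the groups were far apart.

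The list of oxidant-producing enzymes had the highest share of calls among the companion lists, with 7 of 14 higher and 2 lower (64.3% called, beside 18.9% of all rows). As this list was chosen with earlier results of these data known, its share is a description and not a test. *noxo1a*, the organizer subunit of the epithelial NADPH oxidase NOX1, had 5.78, 13.2 and 4.18 CPM after BSA and 63.3, 76.9 and 115 CPM after rzIl26. Every rzIl26 library was several times above the highest BSA library. *noxo1a* rose by 3.48 on the log2 scale (SE 0.44, edgeR adjusted p = 0.0056). The catalytic subunit gene *nox1*, chosen after its values were seen, had 3.23, 6.71 and 8.31 CPM after BSA. After rzIl26 it had 16.8, 28.02 and 20.3 CPM (log2 fold change 1.84, edgeR adjusted p = 0.014). *aox6*, an aldehyde oxidase, fell by 0.68 on the log2 scale (edgeR adjusted p = 0.0092). The calls that rose in this list also include *ptgs2a*, *ptgs2b* and *alox5b.3*, which encode lipid oxygenases known for making prostaglandins and leukotrienes, so the list is not one of superoxide sources alone. The sum of the leukocyte list was higher in the rzIl26 libraries mainly through *mmp9*, *mmp13a* and *il1b*, as given above, and the part of leukocytes in these values was not tested.

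**Figure D4:**
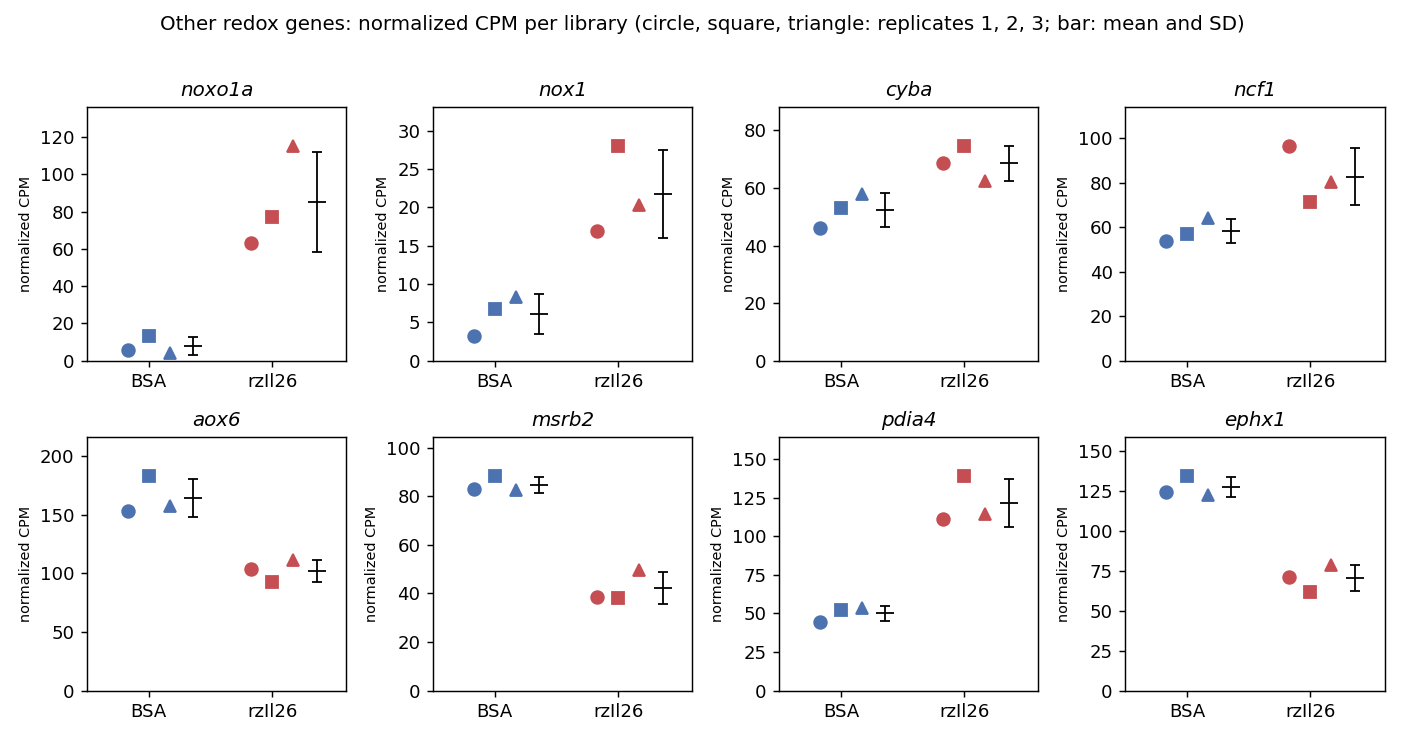
Normalized CPM (vertical axis, from 0) of 8 companion redox genes in the 3 BSA and 3 rzIl26 libraries, with circle, square and triangle for replicates 1, 2 and 3, and the bar giving mean and SD of the group. *noxo1a*, *nox1*, *cyba*, *ncf1* and *pdia4* are higher in every rzIl26 library, and *aox6*, *msrb2* and *ephx1* are lower in every one.

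Leaving out 1 library at a time, 6 to 12 members fell and 1 to 4 rose, and calls over all rows dropped in these smaller fits as well. There were 8 falls and 1 rise without BSA replicate 1, 7 and 1 without BSA replicate 2, 6 and 1 without rzIl26 replicate 2, and 8 and 2 without rzIl26 replicate 3. Over all rows there were 398 falls and 339 rises without BSA replicate 1, 497 and 481 without BSA replicate 2, 420 and 404 without rzIl26 replicate 2, and 712 and 672 without rzIl26 replicate 3. The calls of *gsto1*, *hmox2a*, *keap1a*, *gstt1b*, *gpx4a*, *mgst2* and *sod1* remained in all 6 of these fits, and those of *gstk1*, *prdx3* and *gsto2* in none. No called member changed its direction under any of the 18 alternative settings.

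**Figure D5:**
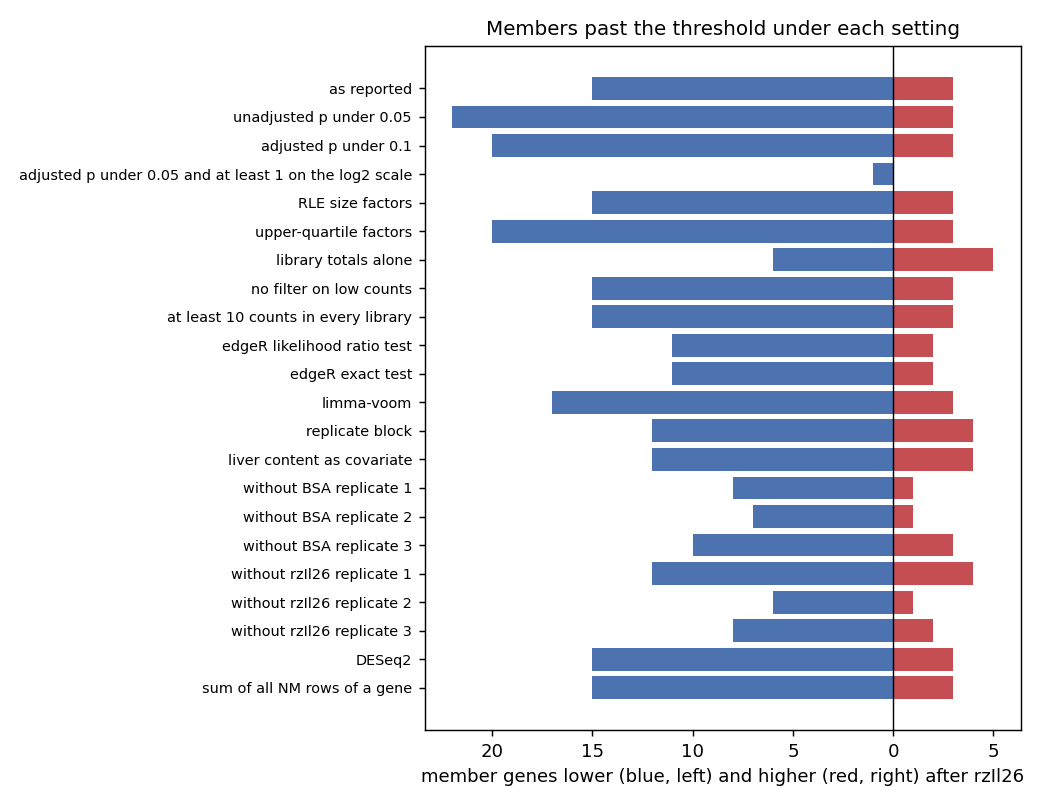
Number of members lower (blue, left of 0) and higher (red, right of 0) after rzIl26 at the threshold of the test, for the fit as reported and each alternative (rows). The counts are 15 lower and 3 higher as reported, and 6 lower and 5 higher with library totals alone.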

How the data were processed

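Poly(A) RNA libraries of pooled guts were made with a stranded kit, sequenced as paired-end reads and, per the submitters' processing notes, aligned to danRer11. The authors deposited raw whole-number counts per RefSeq transcript. The counting tool, its use of strand and its treatment of shared reads are not given in the sources used here. Gene symbols came from RefSeq's GRCz12tu table, used for names and overlaps only, and 15776 of 16134 rows matched.

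Rows kept by filterByExpr (minimum count 10) were compared with edgeR 4.0.16 in R 4.3.3 by the quasi-likelihood test with TMM factors and group as the only term. Benjamini-Hochberg adjustment ran over 10576 rows, with a threshold of 0.05. The biological coefficient of variation was 0.16. SEs and 95% intervals come from the fold change and its F statistic. CPM are scaled by TMM. Scripts were tested on simulated data. Alternatives were other scalings, filters, thresholds and tests (DESeq2 1.42.0, limma 3.58.1), the replicate number as a block, liver level as a covariate, summed rows, and each library left out. P-values measure the spread between pools of guts.

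Named genes are every called member, the tested genes of the NRF2, glutathione synthesis, dismutase, catalase, heme oxygenase and thioredoxin families, the member with the most counts of each other family, and the 2 genes with the lowest adjusted p of each companion list. Others were chosen after their values were seen. Members, companion and marker lists were chosen with earlier results of these data known.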

Additional observations from a re-analysis of the deposited data

How the results depend on the processing

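The members' 3 higher and 15 lower calls moved by over 1.5 times with library totals alone (5 higher, 6 lower; 9 of 18 calls shared; *txndc5* and *txndc12* gained), with a fold change of at least 1 on the log2 scale (0 higher, 1 lower) and without single libraries (1 to 4 higher, 6 to 12 lower). For the companion genes, library totals alone gave 8 lower, the fold change limit 8 higher and 2 lower, and leaving out a library 7 to 14 higher and 8 to 16 lower. The members' median became 0.09 with library totals alone. RLE factors, DESeq2, both count filters and summed rows gave 3 higher and 15 lower members. Upper-quartile factors gave 3 and 20, limma-voom 3 and 17, and edgeR's likelihood ratio and exact tests 2 and 11. Over all rows, 980 were higher and 1015 lower as reported, 858 and 1136 with upper-quartile factors, and 973 and 1078 with limma-voom. The edgeR likelihood ratio test gave 1043 and 956 over all rows, and the exact test 1008 and 920. The members lost with both of these edgeR tests were *txnrd3*, *prdx6*, *gstk1*, *nfe2l2a* and *prdx3*. Among the named companion genes both tests lost *tktb* and *hagh*. Of the named genes, 4 uncalled ones changed sign: with library totals alone *gclc* was 0.11, *gsr* 0.14, *txn2* 0.11 and *gpx1b* 0.0923, and without 1 library *gclc* ranged from -0.0953 to 0.0086, *gsr* from -0.12 to 0.16 and *gpx1b* from -0.12 to 0.0231. With the replicate number as a block there were 4 higher and 12 lower members, beside 883 higher and 844 lower of all rows. In that fit 15 of 18 calls were shared, and 12 companion genes were higher and 16 lower. *hmox1a* was gained (edgeR adjusted p = 0.037), and *gstk1*, *nfe2l2a* and *prdx3* were lost (0.064, 0.073 and 0.058). Deviations of same-numbered libraries correlated at 0.35, 0.15 and -0.002 across rows, so the numbers were not taken to pair the libraries. With 3 libraries a group, the median SE of the tested members was 0.093 on the log2 scale, which limits how small a change could be called.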
